A study of Mus musculus with 2 samples.

Results

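Upper-layer immature callosal neurons of the mouse cortex at embryonic day 18 (E18) were selected from single-cell RNA counts as 770 of 2006 Neurod2/6 cells, among 2631 E18 cells kept and 5073 cells kept in the series. A cell qualified with 500 or more genes, at most 10% mitochondrial unique molecular identifiers (UMIs, counted RNA molecules) and 3 or more UMIs of Neurod2 and Neurod6, the basic helix-loop-helix factors of excitatory cortical neurons. It also needed a UMI of 3 or more of 6 upper-layer markers, Cux1, Pou3f2, Hs6st2, Epha3, Gabra2 and Cntn2. Cells were excluded with 4 or more UMIs of the newborn-neuron genes Sema3c, Unc5d, Sstr2 and Neurod1. They were also excluded with more than 1 of the layer 4 genes Rorb, Inhba, Msx3, Nwd2 and Lpl, or more than 1 of the deep-layer genes Fezf2, Etv1, Rprm, Grp, Tle4 and Hs3st4. The cells that qualified are called members here.

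The series holds 2 libraries, 1 per age. The E18 library came from CD1 mice and covered cortex together with the dorsal ventricular-subventricular zone (V-SVZ), the germinal layer along the ventricle. For postnatal day 2 (P2), the mice were Emx1Cre;R26Eyfpfl/fl, in which Cre acts under Emx1, a gene of the dorsal forebrain, and EYFP marks cells that descend from the cortex, and the library covered the V-SVZ, dorsal and lateral, without cortex. Both were sorted for cells that took up the nuclear dye DRAQ5 and not propidium iodide, and the sources used here do not say how many animals were pooled. Of 256 Neurod2/6 cells at P2, 6 met every clause, so the ages were not compared for this class, and the libraries shared 0 cell barcodes.

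Callosal neurons send an axon across the midline through the corpus callosum and make up much of layers 2 and 3, the last layers of excitatory neurons to be born. They leave the ventricular side as multipolar newborn cells, migrate along radial glia past the older deep-layer neurons, and extend their axon while still migrating. Cux1, Cux2 and Pou3f2 are transcription factors tied to this fate, and Fezf2, Bcl11b, Tle4 and Tbr1 mark the deep layers that project below the cortex. Projection was not measured here, so "callosal" stands for the marker genes alone.

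Each member was described against the 1236 other Neurod2/6 cells and against the classes that 1 clause set apart. These were 440 newborn-gate cells, 223 layer 4-gate cells and 289 deep-gate cells, each failing that exclusion and no other, whatever their number of upper-layer markers. A further 117 few-marker cells passed the exclusions with under 3 markers, and 167 cells failed 2 or 3 exclusions. Of the newborn-gate cells 75.2% had 3 or more upper-layer markers, of the layer 4-gate cells 83.0% and of the deep-gate cells 33.9%. The selection and every level below come from the same cells of 1 library. No test was therefore made, and all differences are descriptions. Levels are CPM, the UMIs of a gene summed over a class and scaled to the same total in each class, ratios are log2 of members over the other class, and 95% intervals cover counting error only.

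Members had a median of 6731 UMIs (quartiles 5688.25 and 8001.25) and 2582 genes. Other Neurod2/6 cells had a median of 7068 UMIs, newborn-gate cells 5469, layer 4-gate cells 9535 and deep-gate cells 8412. The gates read detected genes, and deeper cells can pass or fail them more readily. When all cells were first thinned to 3000 UMIs, 670 cells qualified.

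Cux2 and Gpm6a, both among the genes highest in members beside the other Neurod2/6 cells, are shown with a start region because each holds a motif of a factor family that the gates used. Capitals mark the Neurod-type E-box CAGATG or CATCTG in the Cux2 sequence (GRCm38.p6, chr5:122047776-122048075, minus strand) and the POU octamer ATGCAAAT or ATTTGCAT in the Gpm6a sequence (chr8:54779184-54779483, plus strand). Both run 5′ to 3′ from 250 bases before to 50 after a RefSeq transcript start. Each gene has a further RefSeq start without the motif, at chr5:122049802-122050101 for Cux2 and chr8:54954478-54954777 for Gpm6a. These further starts are the ones that lie at the start of the gene positions given below. The window shown for Cux2 lies inside its gene position, and that for Gpm6a lies upstream of it.
Cux2: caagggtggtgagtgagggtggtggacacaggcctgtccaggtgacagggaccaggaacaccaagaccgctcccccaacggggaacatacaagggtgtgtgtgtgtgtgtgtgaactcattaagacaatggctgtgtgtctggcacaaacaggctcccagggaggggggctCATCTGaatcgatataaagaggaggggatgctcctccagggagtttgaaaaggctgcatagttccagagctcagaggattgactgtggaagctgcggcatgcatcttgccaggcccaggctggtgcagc
Gpm6a: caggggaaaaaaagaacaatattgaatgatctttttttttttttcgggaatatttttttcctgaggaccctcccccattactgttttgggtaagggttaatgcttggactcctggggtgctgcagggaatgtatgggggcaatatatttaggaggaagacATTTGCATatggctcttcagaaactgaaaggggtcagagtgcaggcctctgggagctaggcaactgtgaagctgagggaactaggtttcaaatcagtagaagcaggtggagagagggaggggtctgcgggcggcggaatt
Of the 12 genes named as higher in members, 10 had a promoter in the RefSeq table, with 14 starts. The E-box stood in 3 of these 14 and in 17.2% of all 32851 promoters of this length, and the octamer in 1 of 14 and in 1.74% of all. Of 10 starts of the 12 genes named as lower, 2 held the E-box and 1 the octamer. Of the 7 starts of the 6 upper-layer markers, 0 held either motif. Motifs were searched on both strands, and the counts describe these windows alone.

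Among cells that passed the 3 exclusions, 134 members sat just inside the marker threshold with 3 markers, and 75 cells just outside it had 2. A further 203 members had 4 markers, 268 had 5 and 165 had all 6. Members with 3 markers had a median of 6176.5 UMIs and those with 6 had 6787. The commonest set was all 6 markers (21.4% of members), and the next was all but Epha3 (14.2%). At the newborn limit, 332 members had 0 UMIs of the 4 newborn genes, 216 had 1, 120 had 2 and 102 had 3, the last count allowed. Of all members, 568 had 0 of the 5 layer 4 genes and 516 had 0 of the 6 deep-layer genes.

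**Figure D1:**
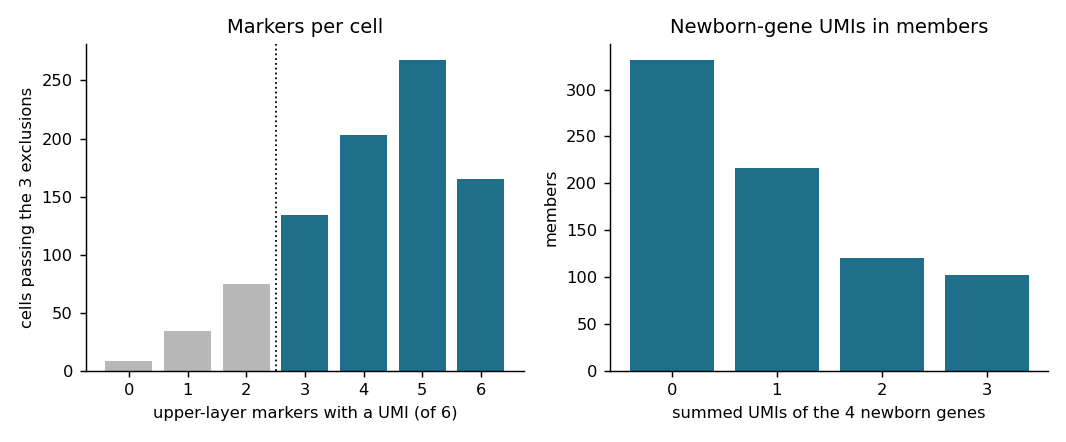
Left, cells that passed the 3 exclusions (y axis) by the number of upper-layer markers with a UMI (x axis), with cells outside the threshold in grey and the 770 members in blue. Right, members (y axis) by summed UMIs of the 4 newborn genes (x axis): 332 members had 0 and 102 stood at 3.

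The 6 upper-layer markers differed in where else they were found. These genes chose the members, and their values describe the selection. Pou3f2, a POU factor of upper-layer production and migration, stood at 399 CPM (382 to 416) in members and at 569.9 CPM (541 to 600.2) in newborn-gate cells. Epha3, a receptor for ephrin-A ligands, likewise stood at 168 CPM (157 to 179) against 239 CPM (220.4 to 259). Both were thus highest in the newborn-gate cells, with log2 ratios of members over them of -0.51 and -0.51, and were lower in the layer 4-gate (134 and 70.3 CPM) and deep-gate cells (102 and 28.7 CPM).

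Cux1, a homeodomain factor of layers 2 to 4, stood at 336 CPM (321 to 352) in members and 283 CPM (261 to 306) in layer 4-gate cells, a log2 ratio of 0.25. In newborn-gate cells it stood at 199.7 CPM and in deep-gate cells at 49.97 CPM. Cux1 was thus far lower in deep-gate cells than in members, where the gate selects for it, and only slightly lower in layer 4-gate cells. Hs6st2, which adds 6-O-sulfate to heparan sulfate, stood at 303 CPM (288 to 318) in members, and its next highest level was 176 CPM (159 to 195) in layer 4-gate cells. Gabra2, the alpha 2 subunit of the GABA-A receptor, stood at 282 CPM (268 to 296) in members, and next in newborn-gate cells at 149 CPM (134 to 165). Cntn2, an axonal adhesion molecule also called TAG-1, stood at 283 CPM (268 to 297) in members and at 145, 140.2 and 91.5 CPM in newborn-, layer 4- and deep-gate cells. Like Cux1, these 3 genes were highest in members of the 4 classes.

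UMIs of these markers were also found in inhibitory-marker and progenitor- or glial-marker cells, and the shares in members are set by the gate. Hs6st2 had a UMI in 81.9% of members (56.7% at 3000 UMIs per cell), against 2.79% (1.34%) of 251 inhibitory-marker cells, whose median was 4895 UMIs, and 7.53% (2.30%) of 186 progenitor- or glial-marker cells, whose median was 7109.5. Gabra2 had one in 70.1% of members (48.5% at 3000) and in 7.97% (5.36%) of the inhibitory-marker and 2.15% (1.15%) of the progenitor- or glial-marker cells. Cntn2 had one in 79.2% of members (55.0% at 3000) and in 7.97% (6.25%) and 1.61% (0.575%) of the same classes. Cux1 and Pou3f2 were commoner than these 3 markers in both classes, and Epha3 in the inhibitory-marker cells alone. Cux1 had a UMI in 49.4% (35.7% at 3000) of inhibitory-marker and 52.7% (29.3%) of progenitor- or glial-marker cells. Pou3f2 had one in 12.7% (7.14%) and 46.8% (31.6%), and Epha3 in 20.3% (12.5%) and 2.15% (1.15%). Thinning kept 746 members, 224 inhibitory-marker and 174 progenitor- or glial-marker cells, leaving out 24, 27 and 12.

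The anchor genes were shared by all Neurod2/6 classes: Neurod6 stood at 1291 CPM in members and 1269 CPM in the others, and Neurod2 at 1031 and 681 CPM. Of the newborn genes, Unc5d, a netrin receptor of multipolar cells, kept 67.0 CPM in members against 387 in newborn-gate cells, and Sema3c, a secreted semaphorin, 48.9 against 420.1. Neurod1, an early neuronal factor, had 17.7 CPM in members against 132, and Sstr2, a somatostatin receptor, 8.58 against 243. In members all 4 were low and none was at 0.

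Of the layer 4 genes, Lpl, lipoprotein lipase, kept 38.4 CPM in members against 398 in layer 4-gate cells. Rorb, a nuclear receptor of layer 4, had 14.0 against 265 CPM, Inhba, an activin subunit, 5.97 against 209, Nwd2 0.746 against 85.2 and Msx3, a homeobox gene, 0.186 against 50.03. Of the deep-layer genes, Rprm had the highest level in members, at 56.1 CPM against 671 in deep-gate cells. Fezf2, the factor of subcerebral projection neurons, had 5.22 against 239 CPM, Etv1 4.85 against 109, and Tle4, a co-repressor of corticothalamic neurons, 4.48 against 188. Grp, gastrin-releasing peptide, had 9.32 against 89.3 CPM and Hs3st4, a heparan sulfate 3-O-sulfotransferase, 0.373 against 133.

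Members were also described by check genes that the gates did not use. Cux2, the partner gene of Cux1, was close in members and layer 4-gate cells, with 135 CPM (125 to 145) in members and 129 CPM (114 to 145) in layer 4-gate cells. In newborn-gate cells it was slightly lower, at 111 CPM (97.97 to 124), and in deep-gate cells it stood at 9.55. Against all other Neurod2/6 cells the log2 ratio of Cux2 was 1.04 (95% interval 0.88 to 1.19). Those cells include the deep-gate cells and the few-marker cells, the latter at 25.2 CPM. The direction of this ratio therefore follows at least in part from the gates. Inhibitory-marker cells also held Cux2, at 147 CPM.

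The remaining check genes divided. Pou3f3, a second POU factor, had a log2 ratio of 0.53 over all other Neurod2/6 cells. Lhx2, a LIM-homeodomain factor of progenitors and upper-layer neurons, was at 183 CPM in members against 491 in newborn-gate cells, and its ratio over all others was -0.24. Mef2c, a MADS-box factor of maturing neurons, had a ratio of -0.46. Of the 6 deep-layer check genes all were lower in members than in the other Neurod2/6 cells: Bcl11b (-3.46), Sox5 (-2.39), Foxp2 (-3.76), Zfpm2 (-4.19), Ldb2 (-1.22) and, least, Tbr1 (-0.28). Tbr1, a T-box factor of early neurons, still stood at 105 CPM in members. Slc17a7, the vesicular glutamate transporter of mature excitatory neurons, stood at 3.92 CPM in members and 27.6 in deep-gate cells. The other Neurod2/6 cells include those removed for deep-layer genes, so the direction of the 6 deep-layer check genes follows at least in part from the gate. Against layer 4-gate cells Bcl11b was higher in members, with 49 UMIs against 1. Of the upper-layer check genes given here, Cux2 and Pou3f3 were higher in members than in all other Neurod2/6 cells and Lhx2 and Mef2c were lower, and Cux2 did not tell members from layer 4-gate cells.

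Markers of other cell types were measured as summed levels. The 6 inhibitory genes summed to 9.51 CPM in members and 12.6 in the other Neurod2/6 cells, the 9 vascular and immune genes to 2.61 and 7.48, and the 4 oligodendrocyte-lineage genes to 2.61 and 11.46. The 4 cycling genes, led by Mki67, summed to 11.6 and 42.4 CPM, and the 4 Cajal-Retzius genes to 23.1 and 41.4, nearly all of it Calb2, with Reln at 0.186 CPM in members. The endothelial gene Flt1, the pericyte gene Rgs5 and the microglial gene P2ry12 were at 0 in members. The 5 progenitor and glial genes summed to 126 CPM in members, 551 in newborn-gate, 74.4 in layer 4-gate and 336 in deep-gate cells. Fabp7, a lipid-binding protein of radial glia, made up most of that sum, with 91.4 CPM in members against 12886 in progenitor- or glial-marker cells. The 4 intermediate progenitor genes had the largest of these sums, 240.4 CPM in members and 283 in the other Neurod2/6 cells, with 718 in newborn-gate, 43.3 in layer 4-gate and 95.2 in deep-gate cells. Most of it in members was Insm1, at 193 CPM. The part of such RNA in the ratios below was not tested.

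Against all other Neurod2/6 cells, 226 of 10361 genes with 50 or more UMIs were 1.5-fold or more higher in members (2.18%) and 1065 were 1.5-fold or more lower (10.3%). Over all genes the median log2 ratio was -0.01. The gates used these same cells, so both shares describe the selection. More genes were lower than higher in members. The 12 genes leading each direction were chosen by the bound of the interval nearest 0, among genes outside the gates with 20 or more CPM.

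**Figure D2:**
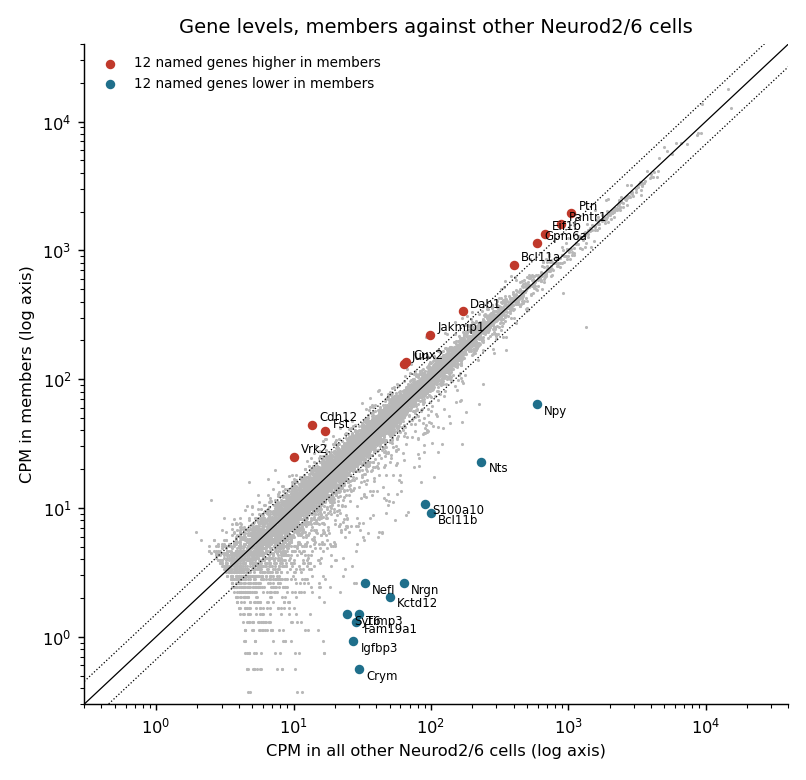
Each grey point is a gene outside the gates with 50 or more UMIs over both groups and at least 1 in each, by its CPM in the other 1236 Neurod2/6 cells (x axis) and in the 770 members (y axis), both log axes; dotted lines mark 1.5-fold. The 12 named genes higher in members (red) lie close above the upper line, from Vrk2 to Ptn, and the 12 lower (blue) lie far below, down to Crym at 0.559 CPM in members.

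Transcription factors and a regulatory RNA were among the 12 higher genes. Cux2 (chr5:121856366-122050102, mm10, as are all gene positions here) stood at 135 CPM (125 to 145) in members and 65.8 CPM (61.0 to 71.0) in the others. Bcl11a (chr11:24078056-24174123), a zinc-finger factor also called Ctip1, stood at 774 CPM (750.2 to 797) and 403 CPM (391 to 415), and its log2 ratio was 0.94 (95% interval 0.88 to 1.00). It was highest in members of the 4 classes, with 578 CPM in newborn-gate, 446 in layer 4-gate and 266 in deep-gate cells. Its near relative Bcl11b (chr12:107910403-108003602), or Ctip2, stood among the 12 lower genes, at 9.14 CPM (6.76 to 12.1) in members and 100.4 CPM (94.4 to 107) in the others. Over the others, the related genes thus pointed opposite ways, as they did over newborn-gate (log2 ratios 0.42 and -2.78) and deep-gate cells (1.54 and -4.52). Bcl11b stood at 210 CPM in deep-gate cells, which the others include, so its direction there follows at least in part from the gate. Over layer 4-gate cells both were higher in members, at 0.79 for Bcl11a and 4.34 for Bcl11b, which had 1 UMI in layer 4-gate cells. Pantr1 (chr1:42590782-42694842), a long noncoding RNA encoded next to Pou3f3, stood at 1596 CPM in members and 1531 in newborn-gate cells, against 869 and 502 in layer 4- and deep-gate cells. Jun (chr4:95049034-95052222), an AP-1 factor of the early response, stood at 131 CPM in members and 136 in newborn-gate cells and was at 24.8 in layer 4-gate cells. Inhibitory-marker and progenitor- or glial-marker cells held more Jun, at 185 and 345 CPM.

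Adhesion, migration and growth-factor genes made up another group. Cdh12 (chr15:20449265-21589533), a classical cadherin, had the highest ratio of the 12, 1.71 (95% interval 1.40 to 2.02), from 44.4 CPM (38.9 to 50.4) in members and 13.6 CPM (11.4 to 16.04) in the others. It had a UMI in 25.6% of members (10.5% at 3000 UMIs) and in 0 of 251 inhibitory-marker cells, which allows a share of cells with a UMI of up to 1.20%. Layer 4-gate cells followed members at 27.9 CPM, with newborn- and deep-gate cells at 10.8 and 9.19. Dab1 (chr4:103619359-104744844), the intracellular adaptor of reelin signalling that radial migration requires, stood at 337 CPM (322 to 353) in members, 204 in layer 4-gate, 191 in deep-gate and 119 CPM in newborn-gate cells. Dab1 was highest in members and lowest in the newborn-gate cells. Ptn (chr6:36714929-36810220), the secreted growth factor pleiotrophin, stood at 1939 CPM (1902 to 1976) in members and 2269.8 CPM (2207 to 2333) in layer 4-gate cells, against 720.4 and 603 CPM in newborn- and deep-gate cells. Progenitor- or glial-marker cells also held Ptn, at 2075 CPM. Gpm6a (chr8:54954843-55060871), a neurite membrane glycoprotein, stood at 1133 CPM (1105 to 1162) in members and 591 CPM (576 to 606) in the others.

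Jakmip1 (chr5:37028335-37150607), a microtubule-associated protein, stood at 220.1 CPM (208 to 233) in members and 98.8 CPM (92.9 to 105) in the others, a log2 ratio of 1.15 (95% interval 1.03 to 1.28). Eif1b (chr9:120492232-120495330), a translation initiation factor, stood at 1342 CPM (1311 to 1373) and 674 CPM (659 to 690.4). Eif1b has a close copy, Eif1, and how reads shared by the copies were assigned was not tested. Vrk2 (chr11:26471322-26593999), a protein kinase, had the ratio 1.31 (95% interval 0.93 to 1.69) at 24.99 CPM in members. Fst (chr13:114452290-114458951), follistatin, an activin-binding protein, had the ratio 1.20, but 127 of its 211 UMIs in members came from 5 cells, 74 of them from 1 cell. With 4 or more markers required, the Fst ratio became -0.0152, and with cells thinned before the gates it was -0.0945. For the other 11 genes the 5 highest members held between 1.73% (Pantr1) and 11.2% (Vrk2) of the UMIs.

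Of the 12 lower genes, 4 are known from deep-layer neurons. Crym (chr7:120186380-120202111), a thyroid hormone-binding protein of corticofugal neurons, had 3 UMIs in 770 members and 311 in the others, of which 230 were in deep-gate cells. Syt6 (chr3:103575231-103645569), a synaptotagmin of corticothalamic neurons, had 8 UMIs in members and 216 in deep-gate cells. Bcl11b, given above, and Nefl (chr14:68083863-68089095), a neurofilament subunit, were the others, Nefl with 14 UMIs in members against 341 and a ratio of -3.66 (95% interval -4.55 to -2.90). Crym, Syt6 and Nefl were close to absent from members, and Bcl11b was not, with 49 UMIs. With cells thinned to 3000 UMIs before the gates, the ratio of Bcl11b was -1.95, that of Kctd12, given below, was -3.37, and with cells thinned after the gates that of Nefl was -2.59.

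The secreted peptides Npy (chr6:49822710-49829507) and Nts (chr10:102481756-102490486) were lower too, and unevenly spread. Npy stood at 63.6 CPM (57.0 to 70.7) in members and 593 CPM (578 to 608) in the others, with 1347 CPM in deep-gate cells. Of its 341 UMIs in members, 235 came from 5 cells. Nts stood at 22.9 CPM (19.1 to 27.4) and 232 CPM (223 to 242), and 94 of its 123 UMIs in members came from 1 cell. Without the cells above 5% mitochondrial UMIs its ratio was -3.07, and with 4 or more markers required it was -6.25, against -3.34 for all members.

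Nrgn (chr9:37544492-37552904), a calmodulin-binding synaptic protein, had 14 UMIs in members against 141 in layer 4-gate and 219 in deep-gate cells. Kctd12 (chr14:102976581-102982637), an auxiliary subunit of GABA-B receptors, had a log2 ratio of -4.61 (95% interval -5.62 to -3.76). Igfbp3 (chr11:7206086-7213923), an insulin-like growth factor binding protein, had -4.87 (95% interval -6.50 to -3.63). Fam19a1 (chr6:96113154-96657198), a secreted chemokine-like protein, had -4.46 (95% interval -5.78 to -3.39), and Timp3 (chr10:86300372-86349506), a metalloproteinase inhibitor, -4.32 (95% interval -5.55 to -3.32). S100a10 (chr3:93555080-93564643), an annexin-binding protein, stood at 10.8 CPM in members and 159 in deep-gate cells. Each of these 6 was highest in deep-gate cells of the 4 classes and at 10.8 CPM or below in members.

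**Figure D3:**
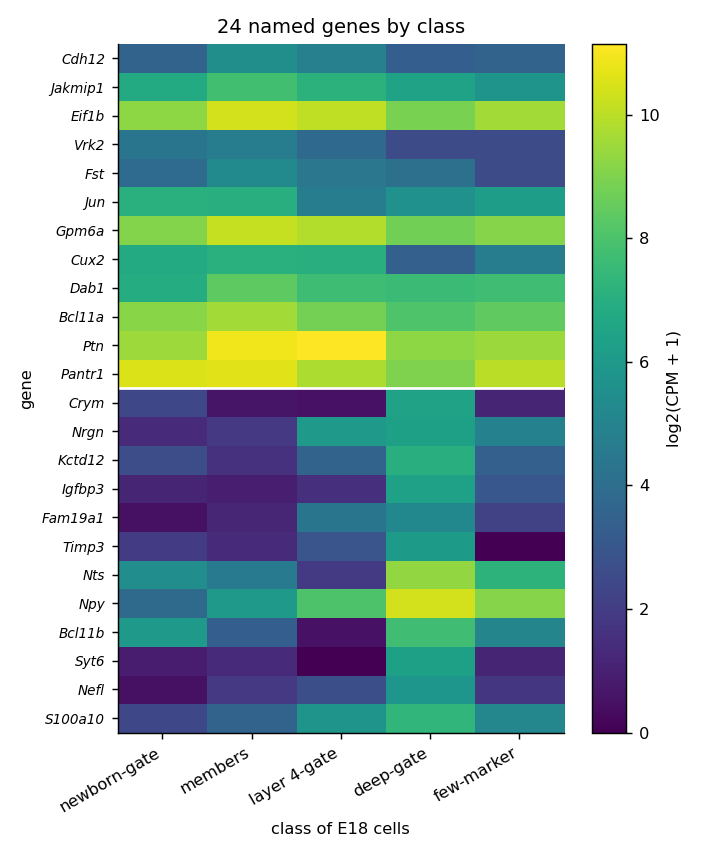
Level of the 24 named genes (rows, 12 higher above the white line and 12 lower below it) in 5 classes of E18 cells (columns), as log2(CPM + 1) in colour. Each of the lower 12 is darker in members than in the deep-gate column. Npy is the brightest of them in members, at 63.6 CPM.

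Against the newborn-gate cells, 801 of 8932 genes were 1.5-fold or more higher in members (8.97%) and 1107 were 1.5-fold or more lower (12.4%), with a median of -0.09 over all genes. Higher genes were 42.0% of those past the threshold, but 57.6% with scale factors from trimmed means (TMM) and 56.0% with a median of ratios, which put the median of all genes at 0.03 and 0.02. With cells thinned before the gates 10.9% of genes were higher and 10.3% lower. Which direction held more genes thus turned with the scale and with that thinning. The ratios of the genes leading each direction were far larger than the shift of scale.

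Mef2c was the leading gene higher in members, at 1061 CPM (1034 to 1089) against 105 CPM (92.3 to 118), a log2 ratio of 3.34 (95% interval 3.16 to 3.53). Neurotrophin-3, Ntf3 (chr6:126101412-126166910), had 236 UMIs in members against 9, a ratio of 3.61. Ndrg1 had a ratio of 3.46, Sla, a Src-like adaptor, 3.06, and Lrfn5, a synaptic adhesion protein, 2.91. Of the 5 named genes lower in members, Eomes, the factor of intermediate progenitors, stood at 8.02 CPM (5.80 to 10.8) in members against 153 CPM (138 to 169). Rnd2, a small GTPase of radial migration, stood at 24.4 against 228 CPM. Pcp4, a calmodulin regulator, had a ratio of -3.81, Mfap4, an extracellular matrix protein, -3.66, and Loxl1, a lysyl oxidase-like enzyme, -3.47.

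Against the layer 4-gate cells, 1159 of 8729 genes were 1.5-fold or more higher in members (13.3%) and 543 were lower (6.22%), with a median of 0.12. Higher genes were 68.1% of those past the threshold, 57.7% with TMM and 55.8% with a median of ratios. Pdzrn3, a ubiquitin ligase, had 195 UMIs in members and 2 in layer 4-gate cells, and the ratio of 5.33 (95% interval 3.46 to 8.39) is wide for that reason. Zbtb20, a zinc-finger factor, stood at 224 CPM against 27.9. Meis2, a homeobox factor, stood at 427 CPM (409.8 to 445) against 69.9 CPM (59.3 to 81.8), and in newborn-gate cells at 1111 CPM. Insm1, a zinc-finger factor of newborn neurons, stood at 193 against 32.9 CPM, with 407 in newborn-gate cells. Members thus lay between the newborn-gate and layer 4-gate cells in both Meis2 and Insm1. Islr2, a leucine-rich membrane protein, had a ratio of 3.32. Downward, Foxp1, a forkhead factor, stood at 64.5 CPM (57.9 to 71.7) in members against 449 CPM (421 to 478), Cntn5, a contactin, had a ratio of -3.13, Hspb3, a small heat-shock protein, -3.79, Nrgn -4.61 and AI593442 -6.08.

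Against the deep-gate cells, 817 of 9102 genes were 1.5-fold or more higher in members (8.98%) and 1004 were lower (11%), with a median of 0.04. Deep-gate cells were deeper, and with cells thinned to 3000 UMIs after the gates 12.2% of genes were higher and 10.2% lower, and with cells thinned before them 17.4% and 11.2%. Which direction held more genes thus turned under both thinnings. Cux2 led, with a log2 ratio of 3.82 (95% interval 3.26 to 4.45), and Pdzrn3 (4.04), Fam19a2 (2.22), Cdh12 (2.27) and Insm1 (1.91) followed. Fam19a2 itself was higher still in layer 4-gate cells, at 285 CPM against 123 in members. Downward, Kif26a, an atypical kinesin, had 0 UMIs in members, with an upper bound of 0.688 CPM, and 84 in deep-gate cells (30.9 CPM, 24.6 to 38.2), and Pde1a, a phosphodiesterase, 0 and 63 (23.1 CPM, 17.8 to 29.6). Crym (-7.24), Igfbp3 (-6.45) and Kctd12 (-5.97) were the other 3. Their levels in members were 2.05 CPM or below.

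Counts in the gene lists below are to be read against the shares over all genes. These were 2.18% higher and 10.3% lower against all other Neurod2/6 cells, and 8.97% and 12.4% against newborn-gate cells. Against layer 4-gate cells they were 13.3% and 6.22%, and against deep-gate cells 8.98% and 11%. A list of upper-layer and callosal genes beyond the 6 markers moved by class. Against all other Neurod2/6 cells, 4 of 21 measured genes were 1.5-fold or more higher and 1 lower, with a list median of 0.12. Cux2, Ptn (0.89) and Tle1 (0.98), a co-repressor, were among the higher genes, and Kitl (-1.33), the Kit ligand, was the 1. Against deep-gate cells 14 were higher and 4 lower (median 0.80), and against newborn-gate cells 12 and 2 (median 0.68). Against layer 4-gate cells 3 of 21 were higher, Pou3f3 (0.82), Cited2 (1.11) and Tle1 (1.43), which is close to the share over all genes. There 5 were lower, among them Mdga1 (-1.37), an adhesion molecule of layers 2 and 3, and Nectin3 (-1.49). Plxnd1, a semaphorin receptor of callosal neurons, had too few UMIs to be measured, at 0.186 CPM in members.

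The deep-layer and subplate list ran the other way except against newborn-gate cells, where 8 of 17 measured genes were higher and 7 lower (median 0.32). Against all other Neurod2/6 cells 17 of 22 measured genes were lower and 1 was higher (median -1.53), and against deep-gate cells 19 of 22 were lower and 0 higher (median -2.01). The exception was Nr4a2, a nuclear receptor of subplate and claustral neurons, at 15.9 CPM (12.7 to 19.6) in members against 1.60 CPM (0.435 to 4.09) in newborn-gate and 2.70 CPM (0.992 to 5.89) in layer 4-gate cells, and 12.5 CPM in deep-gate cells. The deep-layer gate chose the classes, and the direction of this list against the deep-gate cells follows from that choice. Against layer 4-gate cells, which the deep gate does not separate from members, 9 of 16 were higher in members, such as Bcl11b (4.34), Tshz2 (4.02) and Nfib (1.53), and 4 were lower.

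Genes of neuronal maturation placed members between the newborn-gate cells and the others. Against newborn-gate cells 19 of 33 measured genes were higher and 5 lower (median 0.80). Against layer 4-gate cells 3 of 29 were higher and 13 lower (median -0.43), and against deep-gate cells 2 of 39 and 22 (median -1.01). Against all others the counts were 1 and 19 of 39, with a median of -0.55.

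The steps were clearest in abundant genes of the axon and synapse. Gap43, a growth-cone protein, stood at 161 CPM in newborn-gate cells, 466 in members, 908 in layer 4-gate and 1328 in deep-gate cells. Stmn2, a microtubule regulator, stood at 884, 2239, 3457 and 3277 CPM in the same order. Syt1, the calcium sensor of synaptic release, stood at 9.98, 52.2, 143 and 109 CPM. Camk2b, a calcium-dependent kinase, stood at 18.8, 108, 276 and 179 CPM. In each of these 4 genes members were above newborn-gate cells and below both others.

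Gria2, the AMPA receptor subunit that limits calcium entry, broke this order. It stood at 849 CPM (825 to 874) in members, 743 CPM (709 to 777) in newborn-gate, 424 CPM (397 to 452) in layer 4-gate and 512 CPM (485 to 539) in deep-gate cells. It was highest in members. Slc17a6, a vesicular glutamate transporter of early neurons, ran the other way, with 77.9 CPM in newborn-gate cells, 28.3 in members, 8.56 in layer 4-gate and 7.72 in deep-gate cells. Cck, the peptide cholecystokinin, stood at 154 CPM in members, above newborn-gate (51.1) and layer 4-gate cells (64.0) and below deep-gate cells (214).

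The newborn and migration list gave the reverse of the maturation list against 2 classes: 12 of 25 measured genes were lower and 3 higher than in newborn-gate cells (median -0.42), and 10 of 23 were higher and 1 lower than in layer 4-gate cells (median 0.56). Sox11, an SRY-box factor of young neurons, stood at 4209 CPM in newborn-gate cells, 2360.4 in members and 1338 in layer 4-gate cells. Igfbpl1, a relative of the insulin-like growth factor binding proteins, stood at 3747, 2055 and 506 CPM. Doublecortin, Dcx, differed little, at 383, 303 and 289.8 CPM. Of the reelin pathway, Lrp8, one receptor, stood at 100.2, 49.4 and 28.8 CPM, and Vldlr, the other receptor, at 9.58, 24.6 and 39.7. The receptors ran in opposite orders, and members lay between in both.

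**Figure D4:**
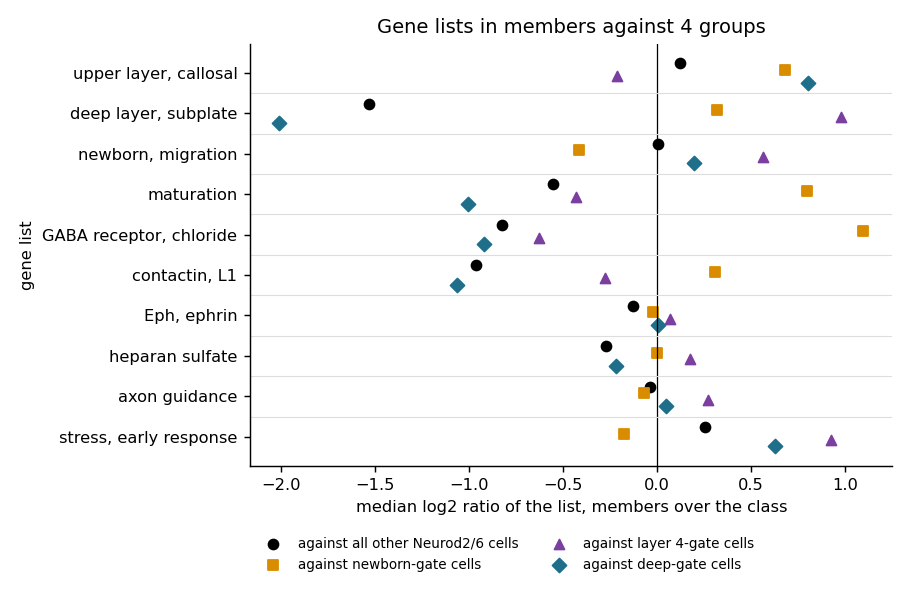
Median log2 ratio (x axis) of 10 gene lists (rows), members over all other Neurod2/6 cells (circles), newborn-gate (squares), layer 4-gate (triangles) and deep-gate cells (diamonds). The maturation median is 0.80 against newborn-gate cells and below 0 against the 3 other groups, and the deep-layer median is lowest against deep-gate cells, at -2.01.

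The gene families of 4 markers were listed and measured gene by gene. Of the GABA receptor and chloride genes other than Gabra2, 7 of 12 measured were lower in members than in all other Neurod2/6 cells and 0 higher (median -0.83), while 5 of 6 were higher than in newborn-gate cells (median 1.10). Gabra5, another alpha subunit, stood at 12.3 CPM (9.52 to 15.7) in members and 55.1 CPM (46.6 to 64.7) in deep-gate cells, the reverse of Gabra2. Gabrb1, a beta subunit, stood at 4.10 CPM against 28.8 and 33.8 in layer 4- and deep-gate cells. Slc12a2, which carries chloride into cells, had 45 UMIs in members, and Slc12a5, which carries it out, 10.

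Of the contactin and L1 family genes other than Cntn2, 11 of 15 measured were lower in members than in all other Neurod2/6 cells and 0 higher, with a median of -0.97. Cntn1 stood at 16.2 CPM (13.0 to 20.0) in members against 66.1 CPM (56.8 to 76.5) in deep-gate cells, and Nrcam, a relative of L1, at 37.9 CPM against 125 and 116 in layer 4- and deep-gate cells. Cadm1, a synaptic adhesion protein, stood at 69.2 against 330.3 CPM in deep-gate cells. Alcam, an axonal adhesion protein, was higher in members without reaching the threshold, with a ratio of 0.57 over the others, and it passed it over layer 4-gate cells with 2.497. Cntn2 was high in members, where the gate selects for it, while most of its family was not.

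The Eph and ephrin, heparan sulfate and axon guidance lists had medians from -0.27 to 0.27. Over all genes 2.18% were higher and 10.3% lower against all other Neurod2/6 cells, the share to read the next 3 counts against. Of the Eph and ephrin genes other than Epha3, 0 of 13 were higher and 2 lower than in all other Neurod2/6 cells, Epha7 (-1.003) and Efna5 (-2.55), an ephrin-A ligand at 5.59 CPM in members and 45.9 in deep-gate cells. Epha5 stood at 195 CPM in members and 387 in newborn-gate cells. Of the heparan sulfate genes other than Hs6st2 and Hs3st4, 2 of 18 were higher and 7 lower. Gpc6, a glypican, was one of the higher, at 26.5 CPM (22.3 to 31.2) in members against 2.70 CPM (0.992 to 5.89) in layer 4-gate cells, and Ndst3, a sulfotransferase at 36 UMIs in members, the other. Of the guidance genes 2 of 27 were higher, Robo2 (0.83), a Slit receptor, and Flrt3 (0.63), and 5 were lower. Nrp1, a semaphorin receptor of growing axons, stood at 166 CPM in members, 214 in newborn-gate and 29.7 in layer 4-gate cells. Under TMM or median-of-ratios scaling the sign of the median of these 3 lists changed in 5 of the 12 list and class pairs, so none is given a direction across the classes. Against all other Neurod2/6 cells the guidance median changed sign. There the heparan sulfate median stayed below 0, at -0.27, -0.25 with TMM and -0.24 with a median of ratios. The Eph and ephrin median did so too, at -0.13, -0.11 and -0.09.

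Early-response and stress genes moved with class as well. Of 9 measured, 7 were higher in members than in layer 4-gate cells and 5 higher than in deep-gate cells, with 2 lower than in newborn-gate cells. Dusp1, a phosphatase induced by stress, stood at 49.98 CPM in members, 67.9 in newborn-gate and 13.5 in layer 4-gate cells. Hspa8, a constitutive chaperone, stood at 2454, 2773 and 1420.2 CPM. The part of dissociation or sorting in these levels was not tested.

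Of 6445 genes, 94 (1.46%) had their highest level in members of the 4 classes, with the intervals over newborn-, layer 4- and deep-gate cells all above 0. A further 36 (0.559%) were lowest in members, with all 3 intervals below 0. Members lay between newborn-gate and layer 4-gate cells in 459 rising (7.12%) and 790 falling genes (12.3%). The genes named here were picked after their values were seen. Ptprz1, a receptor phosphatase that binds pleiotrophin, stood at 211 CPM in members and at 123, 65.8 and 88.9 in newborn-, layer 4- and deep-gate cells, and far higher, at 968, in progenitor- or glial-marker cells. Cnr1, the cannabinoid receptor, stood at 224 CPM in members and at 91.4, 160 and 129 in the same 3 classes. Inhibitory-marker cells held Cnr1 at 234 CPM, above members. Tmsb4x, which binds actin, stood at 13583 CPM and at 7667, 9752 and 10656. Lrp1b, a lipoprotein receptor relative, was lowest in members instead, at 4.66 CPM against 15.6, 28.4 and 40.4, as was Satb1, a chromatin organiser, at 40.3 against 79.9, 96.5 and 86.7.

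Members were also compared among themselves. Each of the 746 members of 3000 or more UMIs was thinned to that number. The 322 with 0 newborn-gene UMIs, counted before thinning, were set beside the 424 with 1 to 3. The split was chosen after the data were seen and uses genes of the selection rule. Between its groups 170 of 5281 genes (3.22%) were 1.5-fold or more higher in the first group and 397 (7.52%) lower. Splitting the same members by a Cux2 UMI after thinning, 235 against 511, gave 2.80% and 4.47%. Setting the 622 with 4 or more markers, counted before thinning, against the 124 with 3 gave 8.41% and 5.26%. Counting error differs with the size of the groups, so the shares of the splits are not compared. Mef2c stood at 1500.0 CPM in members with 0 and 559.7 in members with 1 to 3, a log2 ratio of 1.42 (95% interval 1.29 to 1.55). Cck stood at 182 and 62.1 CPM, Camk2b at 149 and 62.9, and Ntf3 at 67.3 and 18.1. Meis2 ran the other way, at 268 and 627 CPM (log2 ratio -1.22, -1.43 to -1.02), with Insm1 at 134 and 304, Nfib, a nuclear factor of progenitors and deep layers, at 657 and 1252, and Ccnd2, a cyclin, at 9.32 and 43.2. Of 28 maturation genes measured here 8 were higher and 1 lower in members with 0 newborn-gene UMIs. Cux2 differed less, with a log2 ratio of 0.43. The first group had a median of 7483.5 UMIs before thinning and the second 6276.5.

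**Figure D5:**
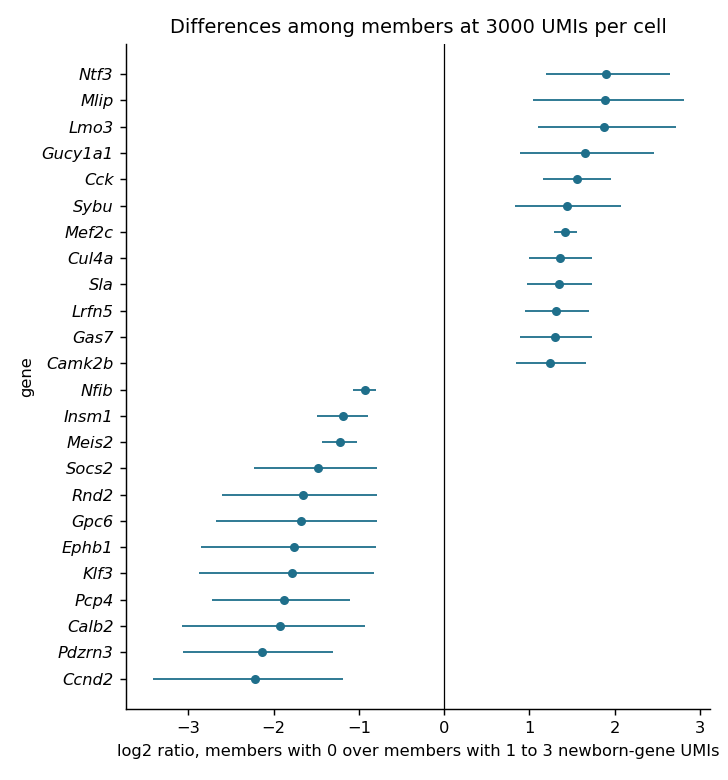
Log2 ratio (x axis) of members with 0 over members with 1 to 3 newborn-gene UMIs, for the 12 genes leading each direction (rows). Levels are at 3000 UMIs per cell, and the newborn-gene UMIs were counted before thinning. Bars are 95% intervals of counting error. Mef2c has the narrowest bar on the right, and Nfib and Meis2 have the narrowest on the left.

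With the 23 gate genes left out, members and the cells of each single-gate class had more neighbours of their own class than the share of that class. In 30 principal components of the Neurod2/6 cells, 69.5% of the 15 nearest neighbours of a member were members, who made up 38.4% of the cells. Newborn-gate cells were 13.7% of the neighbours of members, layer 4-gate cells 7.80%, few-marker cells 3.68% and deep-gate cells 3.58%. The own-class share was 59.9% for newborn-gate cells, which made up 21.9% of the cells, 59.4% for layer 4-gate cells (11.1%) and 62.5% for deep-gate cells (14.4%). The multiple that a class can reach falls as its share of the cells rises, so multiples are not compared with that of members. The neighbours of few-marker cells were members in 34.9%, newborn-gate cells in 23.0% and deep-gate cells in 14.4%, beside 38.4%, 21.9% and 14.4% of all Neurod2/6 cells. Their own class made up 15.3% of these neighbours, beside 5.83% of the cells. Few-marker cells had Cux1 at 40.7 CPM and Hs6st2 at 32.3, which the gate sets, and Eomes at 95.8 and Cck at 508 CPM, both above the levels of members (8.02 and 154). The median depth was 6480 UMIs in few-marker cells against 6731 in members.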

How the data were processed

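Raw UMI counts were deposited, made by the authors with Cell Ranger 4.0.0, per the file headers, on mm10, per the submitters' processing notes. The deposited gene and barcode lists hold names, a type recorded as other. The sources used here give no aligner settings or cell calling. The E18 library held 2922 barcodes and 19986915 UMIs, and 291 barcodes fell to the filter of 500 genes and 10% mitochondrial UMIs.

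Levels are summed counts of all cells in a class scaled to all their UMIs (CPM), with exact Poisson intervals for levels, exact conditional intervals for ratios and exact binomial intervals for shares. Genes needed 50 UMIs over both groups and, as "past the threshold", a 1.5-fold difference. The ratios and their intervals were tested on simulated Poisson counts of 2 summed groups, which hold no spread between cells. Scrublet in scanpy 1.11.5 called 7 of 2631 cells (0.266%), too few to have worked, so no doublet was removed. Instead, the highest 5% of scores, holding 48 members (6.23%), were dropped as an alternative. Other alternatives changed depth, gates, filters, cell weights and scaling (TMM from edgeR 4.0.16). Neighbours were found with scikit-learn 1.9.0 on 2000 variable genes. Inhibitory-, progenitor- or glial- and vascular-marker cells had 0 UMIs of Neurod2 and Neurod6 and 3 or more UMIs of their markers (3 or more marker genes for vascular or immune cells).

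All gate genes were named. Of other genes with 20 CPM in either group, the 12 highest and 12 lowest against all other Neurod2/6 cells and 5 each against 3 classes were named, ranked by the interval bound nearest 0. Mitochondrial, ribosomal, haemoglobin, sex-linked and predicted genes were left out, and those below 25% of their level in inhibitory-, progenitor- or glial-, or vascular-marker cells. List genes were named for their role. Some list genes are counted but not reported here. Members, lists and this rule were chosen with earlier results of these data known. Gene positions come from GENCODE for mm10.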

Additional observations from a re-analysis of the deposited data

How the results depend on the processing

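The number of members was 735 with 5% mitochondrial UMIs, 766 with 1000 genes, 722 without the highest doublet scores, 636 with 4 markers, 751 with 5 UMIs of Neurod2 and Neurod6, and 670 with cells thinned before the gates. Of 102 counts under all alternatives, 83 stayed within 1.5 times the main count. The others followed the filter on low counts and the thinning. With genes of 200 or more UMIs, 100 were higher and 358 lower against all other Neurod2/6 cells, 348 and 372 against newborn-gate, 418 and 204 against layer 4-gate, and 381 and 329 against deep-gate cells. With genes of 1 or more UMIs these were 2811 and 3035, 1672 and 4329, 2207 and 3616, and 2240 and 4357. Thinned after the gates, 677 genes were lower against all others. Thinned before them, 557 were lower there and 630 were lower than in newborn-gate cells. Of 286 values of the 24 named genes, 249 stayed inside the counting interval of the reported ratio, 35 left it with the same sign and 2 changed sign, both Fst (-0.0152 with 4 markers, -0.0945 thinned before the gates). The cause was not tested. With genes of few UMIs, depth limits what a ratio can show. No paired analysis was possible because each age had 1 library and no replicates.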

Other observations

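Members with a Cux2 UMI at 3000 UMIs per cell (235) were set beside the 511 without one, a split chosen after the data were seen. Outside Cux2 itself, Actb, the beta actin gene, stood at 9108 CPM in the first and 5733 in the second, a log2 ratio of 0.67 (95% interval 0.62 to 0.71). Ntf3, neurotrophin-3, stood at 14.2 and 50.9 CPM, and Cck, cholecystokinin, at 66.7 and 136, so both were lower in the members with a Cux2 UMI. The median UMIs before thinning were 6956 and 6665.

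Other genes lowest in members of the 4 classes, also picked after their values were seen, were Cadps, a factor of dense-core vesicle release, at 11.6 CPM against 50.7 in newborn-gate, 27.5 in layer 4-gate and 66.5 in deep-gate cells, and Pik3r1, the regulatory subunit of PI3-kinase, at 27.4 against 51.9, 120 and 134. Plcb1, a phospholipase C, stood at 30.6 against 156, 62.2 and 59.9, and was highest in newborn-gate cells. Cnih3, an AMPA receptor auxiliary protein, stood at 6.53 against 16.4, 46.4 and 65.03.

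At P2, of 256 Neurod2/6 cells, 122 were newborn-gate cells, 120 failed 2 or 3 exclusions, 4 were deep-gate cells, 4 were few-marker cells, 6 met every clause and 0 were layer 4-gate cells alone.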
